A study of Mus musculus with 6 samples.

Results

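The circadian clock genes described here were 10 genes, chosen by name among the 54532 rows of the count table as core clock genes and direct clock outputs. They were Arntl, Clock and Npas2 on the activator side, and Per1, Per2, Per3, Nr1d1, Nr1d2, Dbp and Ciart on the repressor side or among the genes that the activators drive. RNA was taken from the whole heart of male C57BL/6-background mice aged 3 months, of which 3 (mice 368, 369 and 370) were resistant, with the genotype Na/K-ATPase a1r/ra2s/s, and 3 (mice 379, 380 and 381) were sensitive, with the genotype Na/K-ATPase a1s/sa2s/s. The resistant animals carry the rodent α1 isoform, which binds cardiotonic steroids weakly, and the sensitive animals carry an α1 gene altered by substitutions that raise this affinity, a change of the whole animal and not of the heart alone. All of the mice share the a2s/s genotype, their labels name no treatment, and the study describes the controls as age-matched littermates and all animals as kept in alternating light and darkness. The hour at which each heart was taken is not given in the sources used here, and its part in the levels of the clock genes was not tested.

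The mammalian clock is a transcriptional loop. Arntl (BMAL1) pairs with Clock, or with its relative Npas2, and the pair binds E-box sequences to switch on the Per and Cry genes, the nuclear receptor genes Nr1d1 and Nr1d2 (REV-ERBα and REV-ERBβ), and outputs such as Dbp and Ciart. PER and CRY proteins then block the pair, while the REV-ERB proteins repress Arntl, Clock and Npas2 through ROR elements. In the heart, as in other peripheral tissues, transcripts of the activators and of the repressor-phase genes therefore tend to peak at different times of day. The repressor-phase genes were averaged here without assuming that they all peak together. The comparison asked whether these levels differed between resistant and sensitive hearts, and where each heart lay on the axis from activator to repressor transcripts.

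Promoter letters are given first for the members in which a clock motif was found upstream of the start, since E-boxes, D-boxes and ROR elements are the sites through which the loop acts. RefSeq promoter windows on GRCm38.p6 run from 250 bases before to 50 bases after an annotated start, and 13 such windows matched 9 of the 10 members by symbol, all but Per2. Motifs were searched on both strands as CACGTG (E-box), CACGTT (E′-box), TTATGNAA or TTANGTAA (D-box), and TAGGTCA or TGGGTCA (ROR element). Different motifs overlapped in none of the matches shown, and each Per3 match fits both D-box forms. Capitals below mark the matches, and each line runs 5′ to 3′ on the strand of the gene.
Per1: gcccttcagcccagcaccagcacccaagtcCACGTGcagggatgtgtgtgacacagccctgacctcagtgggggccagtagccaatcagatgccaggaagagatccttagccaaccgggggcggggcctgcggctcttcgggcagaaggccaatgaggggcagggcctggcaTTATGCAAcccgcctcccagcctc
Per3: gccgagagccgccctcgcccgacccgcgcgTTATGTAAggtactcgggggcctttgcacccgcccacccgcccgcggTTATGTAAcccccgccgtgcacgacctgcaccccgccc
Nr1d1: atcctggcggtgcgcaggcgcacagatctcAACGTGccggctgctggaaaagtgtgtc
Ciart: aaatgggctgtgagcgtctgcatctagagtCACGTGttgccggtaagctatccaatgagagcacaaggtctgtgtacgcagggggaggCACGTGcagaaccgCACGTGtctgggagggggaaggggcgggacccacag

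The Per1 stretch (chr11:69098753-69098948, plus strand) holds an E-box that begins 166 bases before the start and a D-box that begins 24 bases before it, and it lies within the annotated span of Per1. In Per3 (chr4:151044786-151044900, minus strand) the letters of the D-box occur at 205 and 158 bases before the start, within the span of the neighbouring gene Camta1 but in none of its exons. For Nr1d1 (chr11:98775378-98775435, minus strand) an E′-box, read here as AACGTG, begins 28 bases before the start. Ciart (chr3:95882237-95882374, minus strand) carries 3 E-boxes at 116, 58 and 44 bases before the start. The second Arntl window has a ROR element 30 bases after its start. Among all 32851 windows, 7.15% held an E-box, 4.68% an E′-box, 4.71% a D-box and 6.45% a ROR element. The windows of Clock, Npas2, Nr1d2 and Dbp did not contain these letters.

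The libraries held between 19309312 and 20470065 counts, and mitochondrially encoded genes took 23.4% to 26.0% of them. Members were covered by 46 counts (Ciart, mouse 370) to 3145 counts (Nr1d2, mouse 381) per heart, and all 10 passed the filter on low counts. The heart label was met by its defining transcripts: 5 cardiomyocyte markers (Myh6, Tnnt2, Actc1, Ryr2 and Myl2) summed to 39517 to 49429 CPM (counts scaled by TMM to a library of 1000000) in resistant hearts and 43515 to 46971 CPM in sensitive hearts. In bulk RNA, fewer cells of a type and less RNA per cell cannot be told apart. Levels per gene length, in CPM per kilobase of exon, placed Nr1d1 (25.5 ± 1.99, SD, n = 3) and Nr1d2 (24.0 ± 1.94) first in resistant hearts. Dbp followed at 11.6 ± 2.05, Per1 at 8.52 ± 3.70 and Clock at 6.32 ± 0.389. Below them stood Per3 at 2.48 ± 0.131, Arntl at 2.46 ± 0.297, Ciart at 1.64 ± 0.721, Per2 at 1.19 ± 0.341 and Npas2 at 1.13 ± 0.172 (all SD, n = 3). Neighbours in this order lay within 1 SD of each other, taking the larger SD, for Nr1d1 and Nr1d2, for Dbp and Per1, for Per1 and Clock, for Per3 and Arntl, and for Ciart, Per2 and Npas2. In sensitive hearts Nr1d2 (28.4 ± 2.80) stood above Nr1d1 (21.6 ± 4.31), Per1 reached 13.6 ± 1.33 beside Dbp at 12.8 ± 1.92, and Per2 reached 2.07 ± 0.648 (SD, n = 3).

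None of the 10 clock genes differed between the genotypes past an adjusted p of 0.05 in edgeR's quasi-likelihood test, where 1.44% of the 14866 genes tested did (0.780% higher and 0.659% lower in sensitive hearts). At an unadjusted p under 0.05 there were 3 members (Per1, Per2 and Nr1d2), against 14.5% of all genes tested. DESeq2, the tool the study used, called Per2 alone, against 3.70% of the genes to which it gave an adjusted p. The 2 members with the largest fold changes, Per2 and Per1, were higher in sensitive hearts and were the only members whose 2 genotypes did not overlap, a property of 20.0% of all tested genes. The log2 fold change, sensitive over resistant, had a median of -0.12 over the activators, all 3 of which were lower, and of 0.22 over the repressor-phase genes, of which 6 of 7 were higher, beside a median of -0.01 over all genes tested.

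**Figure D1:**
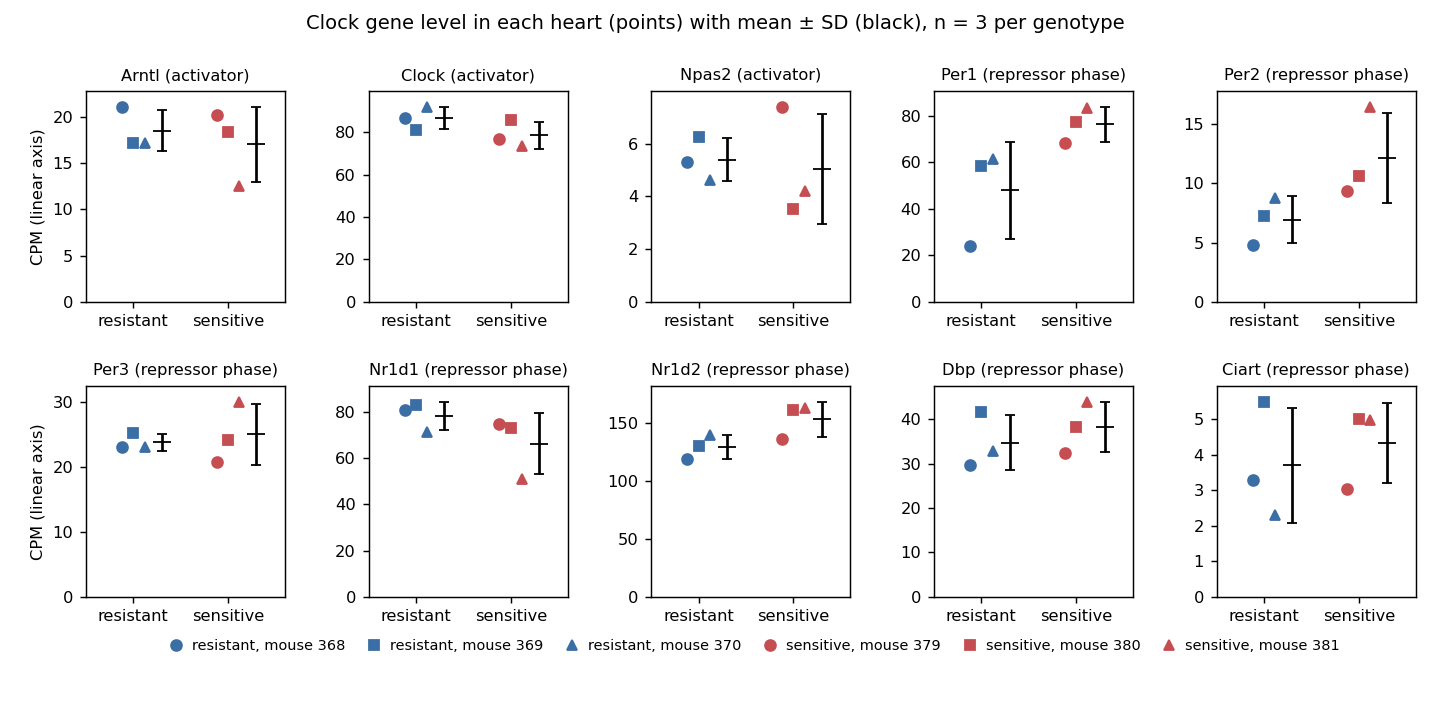
Level of each clock gene in CPM (linear axis from 0) in each heart, with resistant hearts in blue, sensitive hearts in red and the mean ± SD (n = 3) in black. The genotypes are separate for Per1 and Per2 and overlap for the other 8 genes, and mouse 368 lies far below the other resistant hearts in Per1.

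Among the activators, Arntl (chr7:113207465-113314126 of GRCm38, plus strand), the core partner of the loop, had 21.1, 17.2 and 17.2 CPM in resistant hearts (mice 368, 369 and 370) and 20.2, 18.3 and 12.5 CPM in sensitive hearts (mice 379, 380 and 381). Mouse 381 was the lowest and the other sensitive hearts lay within the resistant range. The log2 fold change of Arntl, sensitive over resistant, was -0.12 (SE 0.15, 95% interval -0.45 to 0.21, adjusted p = 0.775 from edgeR). Without mouse 381 it was 0.06. Clock (chr5:76209868-76304792, minus strand), which encodes the DNA-binding partner of BMAL1, had 86.7, 81.4 and 92.0 CPM in resistant hearts and 76.7, 85.7 and 73.5 CPM in sensitive hearts. Here mouse 380 lay inside the resistant range and the other sensitive hearts below it, with a log2 fold change of -0.14 (95% interval -0.31 to 0.03, adjusted p = 0.431 from edgeR). Npas2 (chr1:39193731-39363236, plus strand), which can stand in for Clock, had 5.30, 6.26 and 4.62 CPM in resistant hearts against 7.40, 3.52 and 4.20 CPM in sensitive hearts. The sensitive hearts thus held both the highest and the lowest Npas2 level. Its interval, from -0.64 to 0.45 around a log2 fold change of -0.09, was the widest of the activators (adjusted p = 0.904 from edgeR). With single hearts left out, Npas2 ranged from -0.48 (without mouse 379) to 0.11 (without mouse 380). For Arntl, ratios of sensitive to resistant from 0.733 to 1.16 lay within the interval at this spread.

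Of the Period genes, whose proteins hold the activators in check with the cryptochromes, Per2 showed the largest difference. It had 4.82, 7.21 and 8.79 CPM in resistant hearts and 9.33, 10.6 and 16.4 CPM in sensitive hearts. All of the sensitive hearts were above all of the resistant ones, although mice 370 and 379 lay close together. The ratio of sensitive to resistant was 1.75-fold (95% interval 1.25 to 2.44), or 0.80 with an SE of 0.23 on the log2 scale (adjusted p = 0.104 from edgeR's model across all genes). DESeq2 gave Per2 the same direction (log2 fold change 0.81, adjusted p = 0.0228). Leaving out mouse 381 brought the log2 fold change to 0.52 (adjusted p = 0.371 from edgeR), and leaving out mouse 370 to 1.01 (adjusted p = 0.0674). Per2 (chr1:91415982-91459324, minus strand) shares no exonic base with another annotated gene.

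Per1 (chr11:69095217-69109960, plus strand), which also answers directly to glucocorticoids and to cyclic AMP signals, had 24.0, 58.4 and 61.6 CPM in resistant hearts and 68.4, 77.3 and 83.3 CPM in sensitive hearts. The genotypes did not overlap, and the widest gap was between mouse 368 and the other resistant animals. Its log2 fold change was 0.67 (95% interval 0.19 to 1.15, adjusted p = 0.175 from edgeR). In DESeq2 the adjusted p was 0.458. Without mouse 368 the log2 fold change was 0.35 (adjusted p = 0.159 from edgeR), and it was between 0.60 and 0.90 with any other heart left out. Without the filter on low counts, edgeR called both Per1 (adjusted p = 2.05e-11) and Per2 (adjusted p = 7.11e-05), where 2.19% of genes were called. With the filter and edgeR's robust prior, neither was called (adjusted p = 0.549 for Per1 and 0.16 for Per2). Per3 (chr4:151003652-151044665, minus strand), the remaining member of the family, had 23.1, 25.3 and 23.1 CPM in resistant hearts and 20.8, 24.2 and 30.1 CPM in sensitive hearts. The sensitive hearts of Per3 lay on both sides of the resistant ones (log2 fold change 0.07, 95% interval -0.19 to 0.33, adjusted p = 0.841 from edgeR), and its value ranged from -0.08 without mouse 381 to 0.19 without mouse 379.

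The REV-ERB genes, which encode heme-binding repressors of the activators, had fold changes of opposite sign, neither past the threshold. Nr1d1 (chr11:98767932-98775333, minus strand) had 80.9, 83.0 and 71.5 CPM in resistant hearts and 74.8, 73.2 and 51.1 CPM in sensitive hearts, with mouse 381 far below the rest and the others overlapping. The log2 fold change of Nr1d1 was -0.24 (95% interval -0.49 to 0.01, adjusted p = 0.365 from edgeR), and without mouse 381 it was -0.08. Exons of Thra, a thyroid hormone receptor gene on the opposite strand, share 263 bases with Nr1d1, or 8.55% of its exonic length. Nr1d2 (chr14:18204054-18239127, minus strand) had 119, 131 and 140 CPM in resistant hearts and 136, 162 and 163 CPM in sensitive hearts. Of the sensitive hearts, mouse 379 alone lay within the resistant range of Nr1d2, whose log2 fold change was 0.24 (95% interval 0.06 to 0.42, adjusted p = 0.19 from edgeR). Its adjusted p was 0.113 in DESeq2.

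Dbp (chr7:45705088-45710203, plus strand), an output that encodes a PAR bZIP factor acting on D-boxes, had 29.8, 41.7 and 32.8 CPM in resistant hearts and 32.5, 38.3 and 44.0 CPM in sensitive hearts. The ranges overlapped over most of their width (log2 fold change 0.14, 95% interval -0.13 to 0.41, adjusted p = 0.664 from edgeR). The Dbp value was 0.03 without mouse 381, 0.04 without mouse 368, 0.25 without mouse 379 and 0.29 without mouse 369. Sphk2, on the opposite strand, shares 539 exonic bases with Dbp, which is 18% of its exonic length, and whether counting used strand is not given in the sources used here. Ciart (CHRONO; chr3:95878503-95882251, minus strand), a repressor that binds the activator pair, had 3.29, 5.49 and 2.31 CPM in resistant hearts and 3.03, 5.0 and 4.98 CPM in sensitive hearts. All of the sensitive hearts lay inside the resistant range of Ciart, and the interval of its log2 fold change of 0.22, from -0.42 to 0.87, was the widest of the 10 genes (adjusted p = 0.786 from edgeR). Ciart ranged from -0.02 without mouse 370 to 0.63 without mouse 369.

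**Figure D2:**
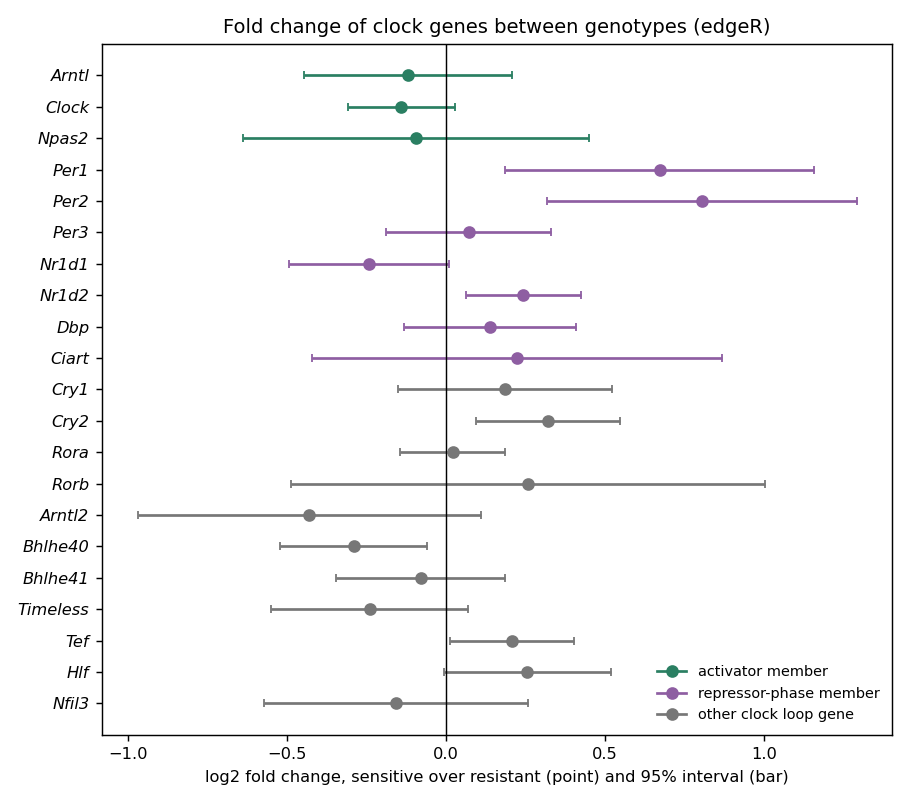
Log2 fold change, sensitive over resistant, with its 95% interval from edgeR for the 3 activators (green), the 7 repressor-phase members (purple) and other clock loop genes (grey). The intervals of the 3 activators all cross 0, and those of Per1, Per2 and Nr1d2 among the members lie above it, with none of these genes past an adjusted p of 0.05.

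Hearts of the same genotype differed in their clock transcripts. The pooled within-genotype SD of log2 CPM was 0.55 for Per1, 0.52 for Ciart, 0.43 for Per2 and 0.42 for Npas2, beside a median of 0.16 over all genes tested. These values ranked at the 91.2, 90.1, 85.4 and 84.5 percentile of the tested genes. Clock, with an SD of 0.10, was at the 26.8 percentile and Nr1d2 at the 40.4 percentile. The heart of mouse 368 had the lowest level of the 6 in 4 of the 7 repressor-phase genes (Per1, Per2, Nr1d2 and Dbp), whereas it was lowest in 14.4% of all genes tested. Mouse 381 had the highest level in 5 of these 7 genes and the lowest in 2 of the 3 activators, against 21.7% and 22.6% of all genes.

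For each heart, log2 CPM of every member was centred on its mean over the 6 hearts and averaged over the 3 activators and over the 7 repressor-phase genes. The activator mean was 0.13, 0.09 and 0.00 in mice 368, 369 and 370, and 0.21, -0.13 and -0.30 in mice 379, 380 and 381. The repressor-phase mean was -0.40, 0.08 and -0.12 in the resistant hearts and -0.05, 0.19 and 0.30 in the sensitive hearts. Both means overlapped between the genotypes. Repressor minus activator was -0.53, 0.00 and -0.12 in resistant hearts and -0.27, 0.32 and 0.60 in sensitive hearts, so that in this difference mouse 379 lay within the resistant range and mice 380 and 381 above it. The genotype means of this difference were -0.22 ± 0.28 and 0.22 ± 0.44 (SD, n = 3), a gap of 0.44 on the log2 scale that is given as a description without a test. Its repressor-phase part rested on Per1 and Per2 more than on the rest. Their log2 fold changes were 0.67 and 0.80, and the others lay between -0.24 (Nr1d1) and 0.24 (Nr1d2). In mouse 368 the centred values were -1.27 for Per1 and -0.87 for Per2, with the others between -0.28 (Dbp) and 0.18 (Nr1d1). Leaving out single hearts moved the gap between 0.25 (without mouse 381) and 0.68 (without mouse 379), and without mouse 368 it was 0.28.

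**Figure D3:**
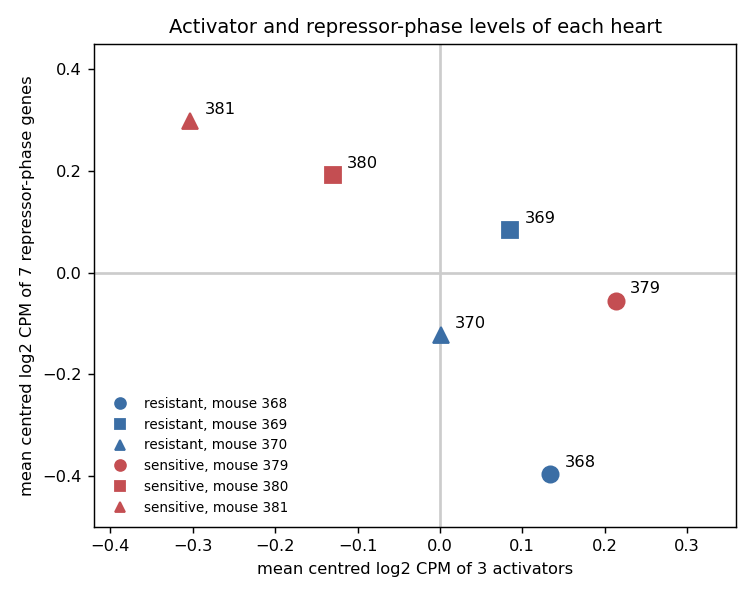
Mean centred log2 CPM of the 3 activators (horizontal) against that of the 7 repressor-phase genes (vertical), with 1 point per heart. Mice 380 and 381 have low activator and high repressor-phase means, mouse 368 has the lowest repressor-phase mean, and mouse 379 has the highest activator mean (0.21) with a repressor-phase mean inside the resistant range.

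Genes outside the members whose 6 centred values lay nearest to these profiles were sought among 12098 tested genes whose mean log2 CPM was 1 or more, by root-mean-square distance in log2 units. Nearest to the repressor-phase profile were Coq10b (a coenzyme Q-binding protein gene, distance 0.027), Kpna2 (importin α, 0.0544), Trit1 (a tRNA-modifying enzyme, 0.0627), Gm826 (0.0634) and Fbxl7 (an F-box protein gene, 0.0695). Dbp was the nearest member of that group, at 0.0917, and Nr1d1 the farthest, at 0.411. Nearest to the activator profile were Amotl2 (an angiomotin-like scaffold, 0.0372), Jag1 (a Notch ligand, 0.0375), Cmtm4 (0.0382), Crispld2 (0.0401) and Gm14325 (0.0465). Arntl itself was at 0.129 from that profile. None of these 10 genes passed the test between the genotypes, with adjusted p from 0.371 to 0.766 in edgeR. They were chosen for nearness to profiles whose genotypes overlap, so this outcome follows largely from the choice. They were also the nearest of 12098 genes over only 6 values, whereas the members were not searched for. Their smaller distances therefore do not show that they follow the clock more closely than the members do.

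Of 12 other genes of the clock loop, none passed an adjusted p of 0.05 in edgeR or DESeq2. In edgeR 3 had an unadjusted p under 0.05, against 14.5% of all genes tested. Cry2, a cryptochrome gene and partner of the PER proteins, had 24.5, 28.4 and 22.1 CPM in resistant hearts and 30.98, 29.1 and 33.7 CPM in sensitive hearts. The genotypes of Cry2 did not overlap, as in 20.0% of all genes tested (log2 fold change 0.32, SE 0.11, adjusted p = 0.164 from edgeR). Bhlhe40 (DEC1), which competes for E-boxes, had 38.0, 46.8 and 53.4 CPM in resistant hearts and 39.8, 35.7 and 37.4 CPM in sensitive hearts, with mouse 368 inside the sensitive range (log2 fold change -0.29, adjusted p = 0.223 from edgeR). The other loop genes given here were named after their values were seen. Cry1, the paralog of Cry2, stood at 0.18 on the same log2 scale (adjusted p = 0.639 from edgeR). Tef, a PAR bZIP relative of Dbp, stood at 0.21 (adjusted p = 0.314) and Hlf, another, at 0.26 (adjusted p = 0.357). Nfil3, which opposes them at D-boxes, stood at -0.16 (adjusted p = 0.765). Rora and Rorb, which activate Arntl through the elements that REV-ERB occupies, had log2 fold changes of 0.02 and 0.26. In this list 7 genes were higher and 5 lower, with a median of 0.05. The list pools genes of opposing action, such as Tef and Nfil3, so its median cannot show whether the loop shifted as a whole.

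Of the genes that modify clock proteins, 10 of 11 were tested and none passed in edgeR or DESeq2. In edgeR 3 had an unadjusted p under 0.05, against 14.5% of all genes tested. Ncor1, the corepressor that REV-ERB recruits, had 166, 167 and 169 CPM in resistant hearts and 194, 180 and 186 CPM in sensitive hearts, without overlap (log2 fold change 0.16, adjusted p = 0.283 from edgeR). Such separation held for 20.0% of all genes tested. Usp2, a clock-driven deubiquitinase gene, had 59.6, 82.2 and 72.3 CPM in resistant hearts and 79.3, 76.8 and 99.9 CPM in sensitive hearts, and only mouse 381 exceeded the resistant range (log2 fold change 0.26, adjusted p = 0.319 from edgeR).

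Among 10 genes known as outputs of the cardiomyocyte clock, none passed in edgeR. An unadjusted p under 0.05 was found for 5 of them, against 14.5% of all genes tested. Nampt, which encodes the rate-limiting enzyme of NAD salvage, had 247, 222 and 247 CPM in resistant hearts and 274, 282 and 319 CPM in sensitive hearts. All of the sensitive hearts were above all of the resistant ones, and 20.0% of all genes tested had no overlap. For Nampt the log2 fold change was 0.29, with an adjusted p of 0.0841 from edgeR and 0.0116 from DESeq2. The list was split evenly, with 5 genes higher, 5 lower and a median of 0.00. Its genes were pooled whatever their time of peak, so this split cannot show whether the outputs shifted together.

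**Figure D4:**
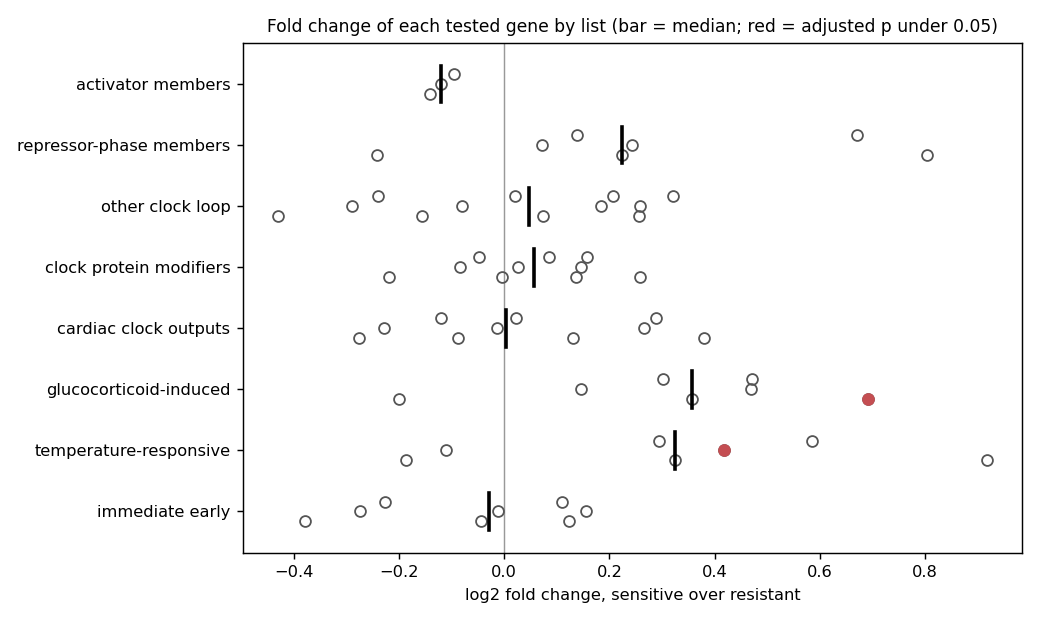
Log2 fold change, sensitive over resistant, of each tested gene (circles) in the clock lists and in 3 lists of cues that reach the clock, with the median of each list as a bar and genes past an adjusted p of 0.05 in red. Zbtb16 in the glucocorticoid list and Hspa8 in the temperature list are past it, and the repressor-phase, glucocorticoid and temperature medians lie at 0.22, 0.36 and 0.32.

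Glucocorticoids, body temperature and acute stimulation all act on clock transcripts, so lists of genes that respond to each were examined beside the members. Of 8 glucocorticoid-induced genes, 7 were tested, 6 were higher and 1 (Sgk1, named after its value was seen, -0.20 on the log2 scale) lower in sensitive hearts, and 1 passed, against 1.44% of all genes. That gene, Zbtb16, a transcription factor gene strongly induced by glucocorticoids, had 19.1, 18.4 and 22.9 CPM in resistant hearts and rose to 28.2, 41.3 and 28.0 CPM in sensitive hearts. Its log2 fold change was 0.69 (SE 0.14, adjusted p = 0.0281 from edgeR). The call was lost without mouse 368 (adjusted p = 0.0947), mouse 369 (0.0856) or mouse 380 (0.0834). Tsc22d3 (GILZ), named after its values were seen, followed the heart order of Per1 in part, with 53.9, 108 and 90.0 CPM in resistant hearts and 99.5, 118 and 132 CPM in sensitive hearts (adjusted p = 0.225 from edgeR). Mouse 368 was lowest in 5 of the 7 tested glucocorticoid-induced genes, against 14.4% of all genes, and mouse 381 was highest in 5, against 21.7%. Mouse 369 was lowest in the other 2 and highest in 1, Sgk1. An unadjusted p under 0.05 in edgeR was found for 5 of the 7 tested genes, against 14.5% of all genes tested. The median log2 fold change of this list was 0.36, and the part of glucocorticoid response in the Per1 and Per2 levels was not tested.

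In the temperature list, 7 genes were tested and 5 were higher. In edgeR 3 of the 7 had an unadjusted p under 0.05, against 14.5% of all genes tested. The list was not split by whether warmth raises or lowers a gene, so its median takes no account of that direction. The 2 lower genes, Rbm3 and Cirbp, were named after their values were seen. They stood at -0.19 and -0.11 on the log2 scale (adjusted p = 0.396 and 0.669 from edgeR). Hspa8, the constitutive HSC70 chaperone gene, rose from 1102, 1195 and 1430 CPM in resistant hearts to 1627, 1678 and 1673 CPM in sensitive hearts. Hspa8 did not overlap between the genotypes, as in 20.0% of all genes tested (log2 fold change 0.42, SE 0.09, adjusted p = 0.0313 from edgeR). With any heart other than mouse 370 left out, its adjusted p was between 0.0732 and 0.164, and without mouse 370 it was 0.0028. None of 8 immediate early genes passed in edgeR or DESeq2, and none had an unadjusted p under 0.05 in edgeR. Jun, a subunit of AP-1, stood at 0.12 on the log2 scale (adjusted p = 0.62 from edgeR), and Nr4a1, an inducible nuclear receptor gene, at -0.23 (adjusted p = 0.716). Hearts of the same genotype differed widely in Egr1, named after its values were seen, with 54.9, 18.8 and 10.4 CPM in resistant hearts and 51.6, 10.3 and 7.47 CPM in sensitive hearts. Mice 368 and 379, the hearts with high Egr1, were also those with the lowest repressor minus activator values, and the part of this in the clock levels was not tested.

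Markers of other cell types were counted beside these results, and none of them passed an adjusted p of 0.05 in edgeR. The 3 atrial myocyte markers (Myl7, Myl4 and Sln) were all lower, with a median log2 fold change of -0.55 and a summed level of 77.4 to 137 CPM in resistant hearts and 62.5 to 77.5 CPM in sensitive hearts. All 3 macrophage and all 3 smooth muscle markers were lower (median -0.31 and -0.33), with summed levels of 67.5 to 107 CPM against 56.4 to 74.5 CPM and of 101 to 141 CPM against 96.5 to 109 CPM. Of 4 fibroblast markers 2 were higher, with 626 to 686 CPM against 651 to 707 CPM, and of 3 endothelial markers 1 was higher, with 646 to 764 CPM against 515 to 674 CPM. Red blood cell markers summed to 523 to 1233 CPM in resistant hearts and 393 to 3103 CPM in sensitive hearts, where mouse 380 was highest, and all 4 were higher (median 0.66). Of 4 adipocyte markers 3 were tested and all 3 were higher (median 0.93), and the list summed to at most 10.3 CPM in any heart, and the brown fat marker Ucp1 was at 0 in all 6. Their part in the clock gene levels was not tested.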

How the data were processed

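Sequencing was done by a company on an Illumina NovaSeq system, and the submitters' processing notes name fastp, STAR, featureCounts and the build mm10 without versions. The authors deposited counts per gene for 6 hearts, not normalized, with gene coordinates and exon length. Lengths and coordinates of the 10 members matched GENCODE M21 on GRCm38. The authors' deposited DESeq2 table (means, log2 fold changes, errors, statistics and p-values) was not used.

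Genotypes were compared in R 4.3.3 with edgeR 4.0.16: TMM, filterByExpr (minimum count 10, minimum total 15), which kept 14866 genes, and glmQLFit and glmQLFTest, its quasi-likelihood test, at an adjusted p of 0.05 (Benjamini-Hochberg, over all genes tested). DESeq2 1.42.0, the tool of the study, served as an alternative on the same genes. The SE was the size of the log2 fold change over the root of F, and 2 was the prior count for log2 CPM. P-values set the genotype difference against the spread between 3 mice per genotype, with each gene's spread drawn toward that of all genes tested. An exact permutation test of a single value could not give less than 0.1. On simulated data of 14866 genes, 200 of them changed by 1 on the log2 scale, edgeR recovered 75.5% of the changed genes, and 5.03% of 159 calls were on unchanged genes. The simulated counts followed the spread typical of genes at each level. The share recovered therefore does not apply to members with wider spread or smaller fold changes, such as Per1 and Per2. The members and lists were chosen with earlier results of these data known. Genes named were all members, in each other list the genes past the threshold or otherwise the 2 of smallest p, and the 5 nearest to each profile; any other gene is said to be named after its values were seen. Alternatives were other scaling, filters, DESeq2, the robust prior, another threshold and each heart left out. Of the genes in these lists, 2 are counted in them but not reported here by name.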

Additional observations from a re-analysis of the deposited data

How the results depend on the processing

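Each fit was repeated with 13 alternatives per gene: RLE or upper-quartile factors, DESeq2, no filter, at least 10 counts in every heart, no globin or mitochondrial genes, edgeR's robust prior, and each heart left out. Of the 10 members, 6 kept their sign in all 13, and Arntl, Npas2, Per3 and Ciart turned in some fits that left out a heart, none of them called. DESeq2 called 1 member, 2 clock outputs, 2 glucocorticoid-induced genes and 422 genes in all; without a filter 2 members, 4 clock outputs, 4 glucocorticoid-induced and 4 temperature-responsive genes and 618 in all were called, and the called members were all higher. An adjusted p under 0.1 gave 402 genes in all, with 1 output and 2 glucocorticoid-induced genes. The robust prior gave 2 glucocorticoid-induced genes. Leaving out each heart gave 80 to 158 genes in all, 0 members, 0 to 1 outputs, 0 to 1 glucocorticoid-induced and 0 to 3 temperature-responsive genes. The count of called loop genes, modifiers and immediate early genes was 0 under each alternative. The repressor minus activator gap moved between 0.25 and 0.68, by less than 1 SD, under its alternatives. The cause of these shifts was not tested. Alternatives for the lists other than the loop were added after seeing the data. The widest intervals were those of Ciart and Npas2, the members with the lowest mean counts, and the part of counting depth in them was not tested. No paired analysis was possible because the litter of each animal is not given in the sources used here and the genotypes share no replicate number in the labels.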
